A study of Mus musculus with 8 samples.

Results

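The transcription factors Foxp1, Isl1, Ebf1, Six3, Rarb, Rxrg and Mef2c were followed through single-cell RNA sequencing of the mouse prefrontal cortex (PFC) and striatum. These 7 genes were chosen by symbol among the 31053 genes of the count matrices, as factors known for their place in the medium spiny neuron (MSN), the projection neuron of the striatum. The libraries came from wild-type (WT) mice and from their Setd1a+/- littermates, which carry 1 frameshift copy of the histone methyltransferase gene Setd1a made by CRISPR-Cas9 in the zygote and crossed back to C57BL/6N. All mice were male C57BL/6N with no treatment, labelled as 8 to 10 weeks old. Each genotype had 2 libraries per tissue, or 8 in all, and each library pooled the tissue of 2 mice. The mutation is in every cell of the animal, so no cell type was targeted, and 1 line from 1 founder allele stands for the genotype. The labels call the striatal tissue nucleus accumbens and the paper calls it striatum, both dorsal and ventral, so the share of each is not known here.

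MSNs fall into a D1 class, which carries the dopamine receptor Drd1 and projects along the direct pathway, and a D2 class, which carries Drd2 and projects along the indirect pathway. Both classes are born in the lateral ganglionic eminence, where a cascade of homeodomain, helix-loop-helix and zinc finger factors fixes their fate, and several of those factors stay on in the adult. Foxp1 is a forkhead repressor of projection neurons. Isl1 is a LIM-homeodomain factor of the direct pathway and of cholinergic neurons, and Ebf1 is a helix-loop-helix factor of the direct pathway. Six3 is a homeodomain factor needed for the indirect pathway. Rarb and Rxrg are nuclear receptors that pair with each other and answer to retinoic acid. Mef2c is a MADS-box factor that reads out neuronal activity and is best known in cortical neurons and microglia.

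In GENCODE vM21 (GRCm38, the assembly also called mm10), Foxp1 lies at chr6:98925338-99522721 on the minus strand and Isl1 at chr13:116298281-116309689 on the minus strand. Ebf1 lies at chr11:44617317-45008091 on the plus strand and Six3 at chr17:85613608-85629302 on the plus strand. Rarb lies at chr14:16430839-16819156 on the minus strand, Rxrg at chr1:167598384-167639623 on the plus strand, and Mef2c at chr13:83504034-83667080 on the plus strand. Isl1, Rxrg and Mef2c overlap no other annotated gene. Foxp1 overlaps 4 annotated genes on its own strand, all named as predicted genes. Six3 overlaps 5 on its own strand and 2 on the other, among them its antisense partner Six3os1. The count matrices had no row under the name Six3os1, so its level is not given. Ebf1 overlaps 1 predicted gene on the other strand. Rarb overlaps Top2b, which encodes a DNA topoisomerase, and 1 predicted gene on the other strand. Whether counting used the strand is not given in the sources used here. Top2b was at 54.5 to 79.3 CPM (UMIs of the gene per 1000000 UMIs of the same cells) in D1 MSNs. It was at 57.2 to 62.6 CPM in D2 MSNs and at 86.0 to 91.6 CPM in PFC excitatory neurons. The part of Top2b in the counts of Rarb was not tested.

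The promoters of 4 of these factors are shown because their genes had the striatal patterns described below: Isl1 and Six3 were nearly or wholly absent from PFC cells, and Rarb and Rxrg, partners in 1 receptor complex, had like profiles over cell types. Each is the 250 bases before the annotated start in RefSeq (GRCm38.p6), read 5′ to 3′ on the strand of the gene, and all 7 factors matched the RefSeq table by symbol with 13 starts in all. For Rxrg the promoter of the second, internal start is shown, and that at its first start (chr1:167598112-167598361) holds no AGGTCA. The regions of Rarb and Six3 also lie inside the GENCODE spans given above, and not at the outer start of the gene. The capitals mark a retinoic acid response element of the type DR5 in Rarb (a direct repeat with a spacer of 5 bases), the nuclear receptor half-site AGGTCA in Rxrg, and the CCAAT box on either strand in Isl1 and Six3. The regions are chr14:16575477-16575726 on the minus strand for Rarb, chr1:167618015-167618264 on the plus strand for Rxrg, chr13:116309689-116309938 on the minus strand for Isl1, and chr17:85620584-85620833 on the plus strand for Six3.
Rarb: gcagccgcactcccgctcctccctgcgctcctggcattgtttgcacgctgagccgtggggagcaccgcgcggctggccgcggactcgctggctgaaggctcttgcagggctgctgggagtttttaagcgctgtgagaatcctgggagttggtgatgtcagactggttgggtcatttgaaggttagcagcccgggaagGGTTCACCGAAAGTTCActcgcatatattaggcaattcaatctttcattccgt
Rxrg: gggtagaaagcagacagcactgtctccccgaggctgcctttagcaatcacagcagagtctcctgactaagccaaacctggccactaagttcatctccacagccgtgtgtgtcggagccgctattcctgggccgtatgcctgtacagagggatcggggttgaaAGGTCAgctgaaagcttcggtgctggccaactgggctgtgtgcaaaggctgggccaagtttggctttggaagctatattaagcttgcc
Isl1: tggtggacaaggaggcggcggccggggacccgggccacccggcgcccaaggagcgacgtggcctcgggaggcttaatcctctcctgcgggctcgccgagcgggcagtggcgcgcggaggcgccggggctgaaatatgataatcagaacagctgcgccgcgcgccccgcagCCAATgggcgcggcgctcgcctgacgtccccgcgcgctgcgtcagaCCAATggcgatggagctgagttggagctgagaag
Six3: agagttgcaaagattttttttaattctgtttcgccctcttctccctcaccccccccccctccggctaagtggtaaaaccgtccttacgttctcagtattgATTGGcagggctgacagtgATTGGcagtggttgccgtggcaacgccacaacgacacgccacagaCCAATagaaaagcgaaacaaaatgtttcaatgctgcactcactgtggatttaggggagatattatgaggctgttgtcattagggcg
The DR5 element of Rarb spans positions -53 to -37 from its start, and a DR5 element was found in 29 of the 32841 RefSeq promoters of this length, or 0.0883%. The half-site of Rxrg spans -88 to -83, and AGGTCA was found in 14.0% of the promoters. CCAAT was found in 33.9% of all promoters, with 2 copies in Isl1 at -80 to -76 and -34 to -30 and 3 copies in Six3. Of the other letters searched on both strands, TAATTA was found in 4.84% of promoters and at 1 start each of Foxp1 and Mef2c, while the forkhead motif TGTTTAC was found in 3.17% of promoters and at none of the 13 starts. The palindromic EBF motif (0.780% of promoters) and the MEF2 motif were at none of them either. AGGTCA was also at 2 starts of Mef2c. A match describes these letters and no more.

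The libraries held 15154268 to 26277553 UMIs, and 1508 to 4361 cells annotated by the authors had a median of 2302.5 to 3042 UMIs per cell. The striatum gave 14690 annotated cells of 10 types, among them 3904 D1 and 2451 D2 MSNs, and the PFC gave 8997 cells of 8 types, among them 2775 excitatory neurons in 7 subtypes. The markers of these types were highest in their own type in 67 of 69 checks, and pairs of libraries shared 1 to 24 cell barcodes. The targeted gene Setd1a ranged from 8.45 to 11.2 CPM over WT PFC libraries and 5.59 to 9.33 CPM over Setd1a+/- ones, and from 13.4 to 15.2 against 9.16 to 12.5 CPM in the striatum. The ranges overlapped in the PFC, and Setd1a was lower in the Setd1a+/- library in 4 of 4 pairs of the same number. Tags from the 3′ end do not read the deletion itself. Droplets hold free RNA. In striatal barcodes with 1 to 100 UMIs, Foxp1 was at 235 to 294 CPM, Rxrg at 105 to 163, Mef2c at 101 to 118, Rarb at 47.5 to 91.5, Six3 at 46.9 to 63.6, Ebf1 at 23.7 to 35.0 and Isl1 at 20.2 to 33.8.

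Over the 18 annotated types, 5 of the 7 factors had their highest mean level in an MSN class, and Ebf1 and Mef2c did not. Levels are given in CPM from the UMIs of a type added up within each library. Groups are described without a test where the cells were clustered on the same expression data. A count of 0 UMIs allows up to 3.

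**Figure D1:**
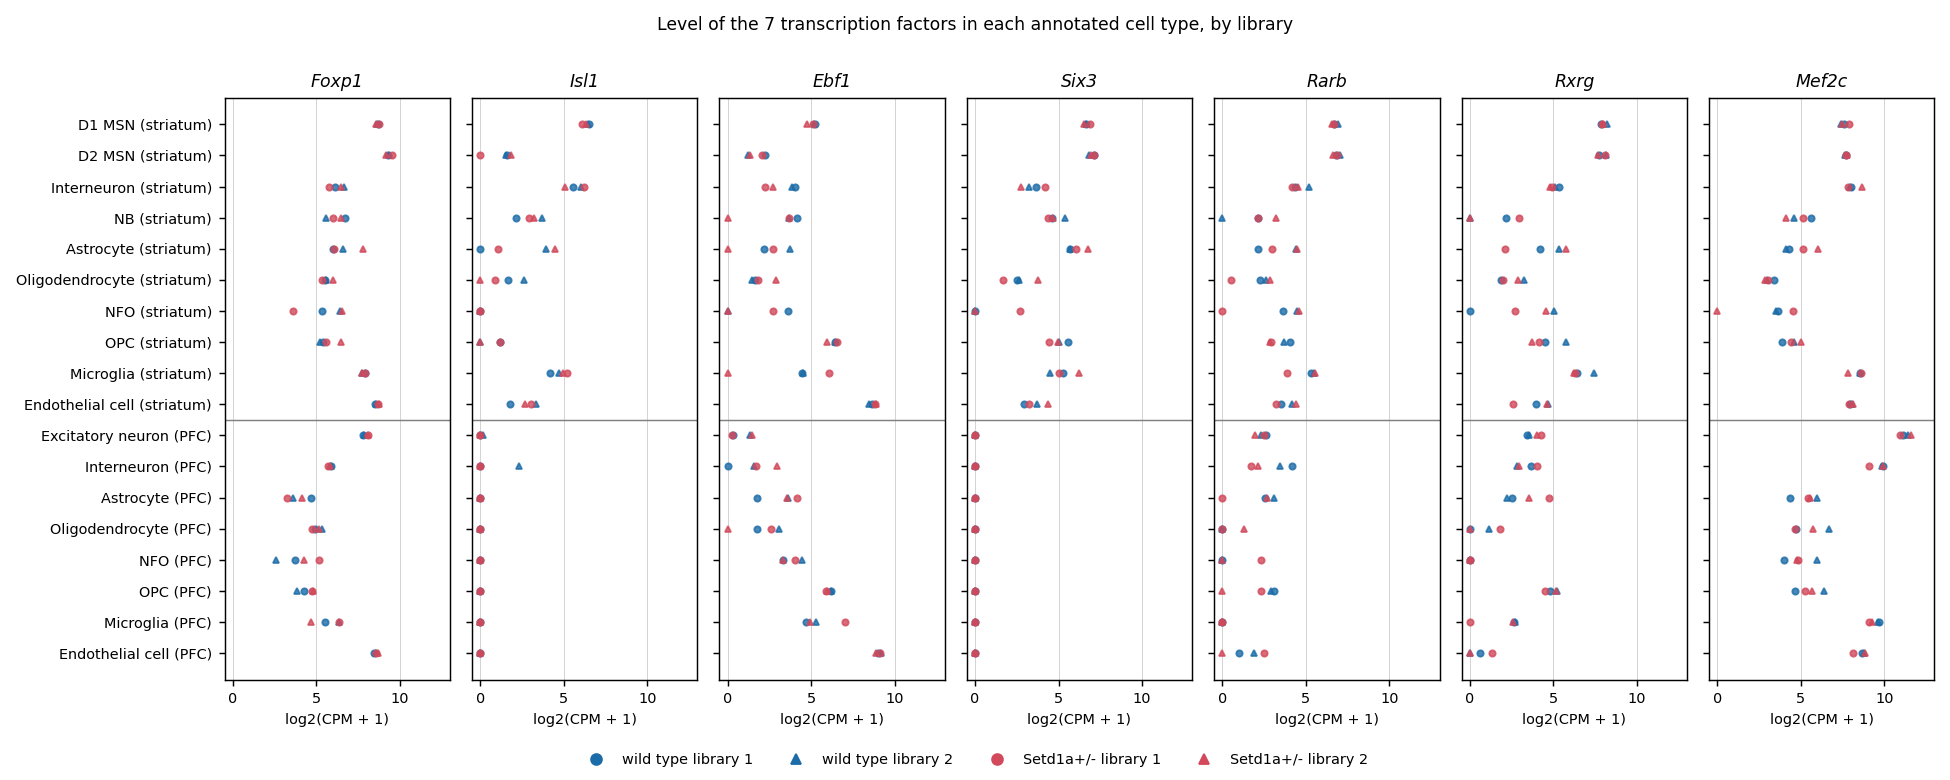
Level of each factor, as log2(CPM + 1) of summed UMIs (horizontal axis), in the 10 striatal and 8 PFC cell types (rows), with 1 point per library coloured by genotype. Six3 stood at 0 in every PFC type, Ebf1 was highest in endothelial cells of both tissues (353 to 583 CPM), and Mef2c was highest in PFC excitatory neurons (1995 to 3088 CPM).

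Foxp1 was highest in D2 MSNs, with levels (WT libraries 1 and 2, then Setd1a+/- libraries 1 and 2) of 624, 654, 742 and 578 CPM. D1 MSNs had 405, 400, 430 and 385 CPM in the same order, below D2 MSNs in every library. Endothelial cells of the striatum (362 to 433 CPM) and of the PFC (346 to 410 CPM) overlapped D1 MSNs, and PFC excitatory neurons followed at 224 to 276 CPM. Interneurons, the local inhibitory neurons, had little of it in either tissue, at 53.0 to 100 CPM in the striatum and 51.0 to 57.8 CPM in the PFC.

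Isl1 was highest in D1 MSNs, at 91.1, 84.8, 66.9 and 79.3 CPM in the same order. Striatal interneurons overlapped them at 33.0 to 73.9 CPM. D2 MSNs had 2.09, 1.94, 0 and 2.60 CPM, and 16 UMIs in 2451 cells. In the PFC only 3 UMIs were found in 8997 cells, 2 of them in interneurons. A UMI of Isl1 was present in 18.0 to 23.2% of D1 MSNs and in 0 to 0.798% of D2 MSNs, with median depths of 3167 and 3422 UMIs per cell. Striatal oligodendrocytes, which should lack it, had 0 to 0.584% at a median of 2076 UMIs, a range that overlapped the D2 share. Striatal microglia had 4.55 to 8.33% at a median of 2285 UMIs, so this share differed between non-neuronal types. The part of free RNA in these shares was not tested. With each cell thinned to 1000 UMIs the D1 share was 6.00 to 7.54% and the D2 share at most 0.296%.

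Ebf1 had its highest level outside neurons. Endothelial cells had 475 to 583 CPM in the PFC and 353 to 477 CPM in the striatum, where 53.9 to 62.7% of them carried a UMI. Oligodendrocyte precursors (OPCs) followed at 61.7 to 93.8 CPM in the striatum and 59.2 to 72.0 CPM in the PFC. Among MSNs, Ebf1 was at 36.5, 34.8, 34.0 and 26.1 CPM in D1 cells, beside 23.7 to 35.0 CPM in striatal free RNA. D2 cells had 3.76, 1.29, 3.12 and 1.56 CPM, below D1 cells in every library. A UMI was present in 5.75 to 9.78% of D1 and 0.266 to 1.19% of D2 MSNs. Striatal oligodendrocytes had 0.389 to 1.49%, which overlapped the D2 share, and striatal microglia had 0 to 12.5%. The part of free RNA in these shares was not tested. PFC excitatory neurons had 0.214 to 1.70 CPM. Of the 3 defining endothelial markers, the summed level was 6.98 to 17.0 CPM in D1 and 4.68 to 25.8 CPM in D2 MSNs, ranges that overlap.

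Six3 was highest in D2 MSNs, at 141, 114, 139 and 120 CPM in WT libraries 1 and 2 and Setd1a+/- libraries 1 and 2, and D1 MSNs had 97.6, 98.3, 115 and 91.4 CPM, so that the ranges just overlapped. Its PFC level was 0: no UMI was found in 8997 cells, which allows up to 0.0333% of cells with a UMI. This bounds detection and not expression, since Six3 was detected in only 20.6 to 37.0% of MSNs of a class and library. In the striatum 2154 of 14690 cells carried it. Among striatal non-neuronal cells, Six3 was highest in astrocytes, the support cells of the tissue, at 49.8, 51.0 and 65.3 CPM, and at 106 CPM in Setd1a+/- library 2, beside 46.9 to 63.6 CPM in free RNA. OPCs had 20.6 to 45.7 CPM. These values stood at a higher share of the MSN level than the MSN markers did. In astrocytes Six3 was at 43.1 and 48.9% of its MSN level in WT libraries 1 and 2 and at 52.6% in Setd1a+/- library 1. Setd1a+/- library 2 gave 103%, from 10 UMIs in 31 astrocytes. In the same libraries the 4 summed MSN markers (Ppp1r1b, Rgs9, Pde10a and Adcy5) were at 13.3 to 22.6%. In neuroblasts the shares were 16.1 to 39.4% for Six3 and 3.79 to 7.33% for the markers. In OPCs they were 16.5 to 39.6% and 6.82 to 13.1%, without overlap. Microglia held 20.6 to 72.5% of the MSN level of Six3 and 25.9 to 43.5% of the markers, which overlapped. Striatal endothelial cells (5.76 to 19.4% against 5.92 to 15.8%) and oligodendrocytes (1.72 to 12.2% against 4.05 to 14.5%) overlapped too. PFC astrocytes had 0 UMIs of Six3 in 554 cells, and counted over all libraries the striatal astrocytes were at least 23.2-fold higher, against a floor of 3 UMIs over the PFC group. The part of free RNA in these glial values was not tested.

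**Figure D2:**
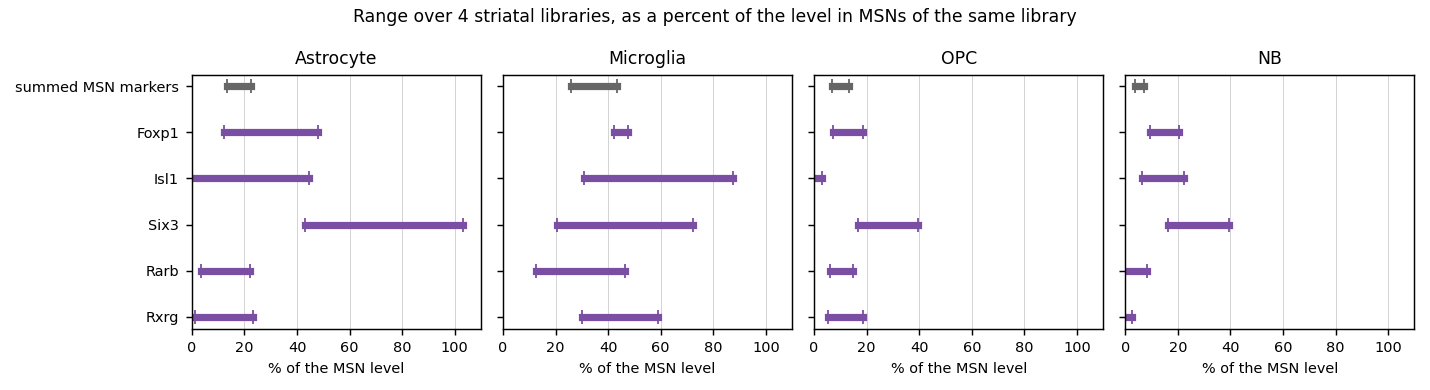
Range over the 4 striatal libraries of the level of 5 factors and of the 4 summed MSN markers in astrocytes, microglia, OPCs and neuroblasts (NB), as a percent of the level in the MSNs of the same library. Six3 lay above the marker range in astrocytes (43.1 to 52.6% in 3 libraries and 103% in 1 with 10 UMIs, against 13.3 to 22.6%), OPCs and NB, and overlapped it in microglia.

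The 2 retinoid receptors shared a profile. Rarb was at 109, 128, 113 and 97.8 CPM in D2 MSNs and at 101, 121, 103 and 95.1 CPM in D1 MSNs, in the order of WT libraries 1 and 2 and Setd1a+/- libraries 1 and 2. Rxrg was at 214, 287, 267 and 203 CPM in D2 MSNs and at 229, 294, 241 and 246 CPM in D1 MSNs. For both, the D1 and D2 ranges overlapped, and no other type reached them. Striatal microglia came next, with 13.4 to 44.8 CPM of Rarb and 74.7 to 172 CPM of Rxrg, the latter 30.2 to 59.1% of the MSN level beside 25.9 to 43.5% for the MSN markers. PFC microglia had no UMI of Rarb and at most 5.41 CPM of Rxrg. PFC OPCs had 21.7 to 36.5 CPM of Rxrg, above PFC excitatory neurons at 9.54 to 18.0 CPM. Pearson's r of Rarb and Rxrg over the means of 18 types was 0.91, the highest of the 21 pairs among the factors. The types share libraries and free RNA, so r is a description.

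Mef2c was a cortical gene in these data. PFC excitatory neurons had 2210, 2795, 1995 and 3088 CPM, and 98.0 to 98.7% of them carried a UMI. PFC interneurons (544 to 990 CPM) and PFC microglia (537 to 833 CPM) followed. In the striatum, microglia (224 to 393 CPM), interneurons (227 to 405 CPM) and endothelial cells (235 to 282 CPM) stood above or beside the MSNs. D1 MSNs had 167 to 232 CPM and D2 MSNs 199 to 219 CPM. In free RNA of the PFC Mef2c was at 564 to 1265 CPM, and PFC oligodendrocytes had 24.2 to 103 CPM.

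The D1 and D2 clusters were built with these genes. To compare the classes without those 2 labels, cells annotated as MSNs of either class were split by their receptor UMIs. The split was into cells with Drd1 and no Drd2 and cells with Drd2 and no Drd1. Of 6355 MSNs, 1406 carried Drd1 alone and 1137 Drd2 alone, 48 carried both and 3764 neither. The authors' clusters held 98.4% of the Drd1 cells as D1 and 94.6% of the Drd2 cells as D2. Free RNA of the striatum held Drd1 at 84.6 to 115 CPM and Drd2 at 105 to 129 CPM. The part of free RNA in the split was not tested. The 2 classes of each library were summed and compared with edgeR's quasi-likelihood test with the library as a block.

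Isl1 and Ebf1 had more UMIs in Drd1 cells, Foxp1 was lower there by less than 2-fold, and the other 4 factors differed little. Isl1 was at 111, 88.8, 63.6 and 75.7 CPM in Drd1 cells and at 5.88, 6.47, 0 and 7.37 CPM in Drd2 cells (WT libraries 1 and 2, Setd1a+/- libraries 1 and 2). This rested on 459 and 23 UMIs, a ratio of 16.4 with a 95% counting interval of 10.8 to 26.2, and Drd1 cells were higher in 4 of 4 libraries. Ebf1 was at 41.6, 42.7, 45.2 and 30.9 CPM in Drd1 cells and at 10.1, 5.30, 4.08 and 2.95 CPM in Drd2 cells, from 212 and 26 UMIs, a ratio of 6.71 with a counting interval of 4.46 to 10.5. The groups of libraries did not overlap for either gene, and the share of all genes without overlap was not counted here. Both passed the filter on low counts mainly through the Drd1 cells where they were high, with 0 to 11 UMIs of Isl1 and 2 to 12 of Ebf1 per library in Drd2 cells, so they are given by their counts and not by a test. With a call at an FDR under 0.05 and more than 2-fold, 1.39% of the 9227 genes tested were called, 0.878% higher and 0.509% lower in Drd1 cells. Of the 8313 genes that met the filter in each class, which was asked for after seeing the data, 0.722% were called (0.433% higher and 0.289% lower), and 0 of the 5 other factors were. The median log2 fold change of these 5 was -0.23, and that of the 8313 genes was -0.0029.

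Foxp1 was at 486, 449, 548 and 439 CPM in Drd1 cells and at 645, 674, 771 and 571 CPM in Drd2 cells. It was higher in Drd2 cells in 4 of 4 libraries, with a log2 fold change of -0.53 for Drd1 over Drd2 (SE 0.05, FDR = 3.88e-10). Without the fold criterion, 5.07% of the genes tested passed the FDR. Six3 was at 108, 98.9, 108 and 90.6 CPM in Drd1 cells and at 128, 106, 154 and 108 CPM in Drd2 cells. Six3 was higher in Drd2 cells in 4 of 4 libraries, though the ranges overlapped. Its log2 fold change was -0.31 (SE 0.09, FDR = 0.0499), at the threshold of 0.05, and in 9 of 11 other settings its FDR was above it, up to 0.957 with DESeq2. With D2 cells taken as those with Drd2 or Adora2a it was -0.39 (SE 0.08, FDR = 0.00101), and over the genes that met the filter in each class its FDR was 0.0485. The log2 fold change lay between -0.24 and -0.39 in all of these settings.

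Mef2c (log2 fold change -0.24, SE 0.07, FDR = 0.0589), Rarb (-0.15, SE 0.09, FDR = 0.442) and Rxrg (-0.13, SE 0.07, FDR = 0.308) did not pass. The Mef2c level was 169 to 214 CPM in Drd1 and 198 to 233 CPM in Drd2 cells, which overlap. Its FDR was 0.0121 when D2 cells were taken as those with Drd2 or Adora2a and 0.0336 without Setd1a+/- library 2, and 0.0600 to 0.999 in the other 9 settings. In the annotated clusters, with no test, the log2 differences of D1 over D2 were 5.38 for Isl1, 3.75 for Ebf1, -0.75 for Foxp1, -0.42 for Six3, -0.22 for Mef2c, -0.17 for Rarb and -0.0051 for Rxrg, for which no direction is read, since its mean level was 252 CPM in D1 and 243 CPM in D2 MSNs.

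**Figure D3:**
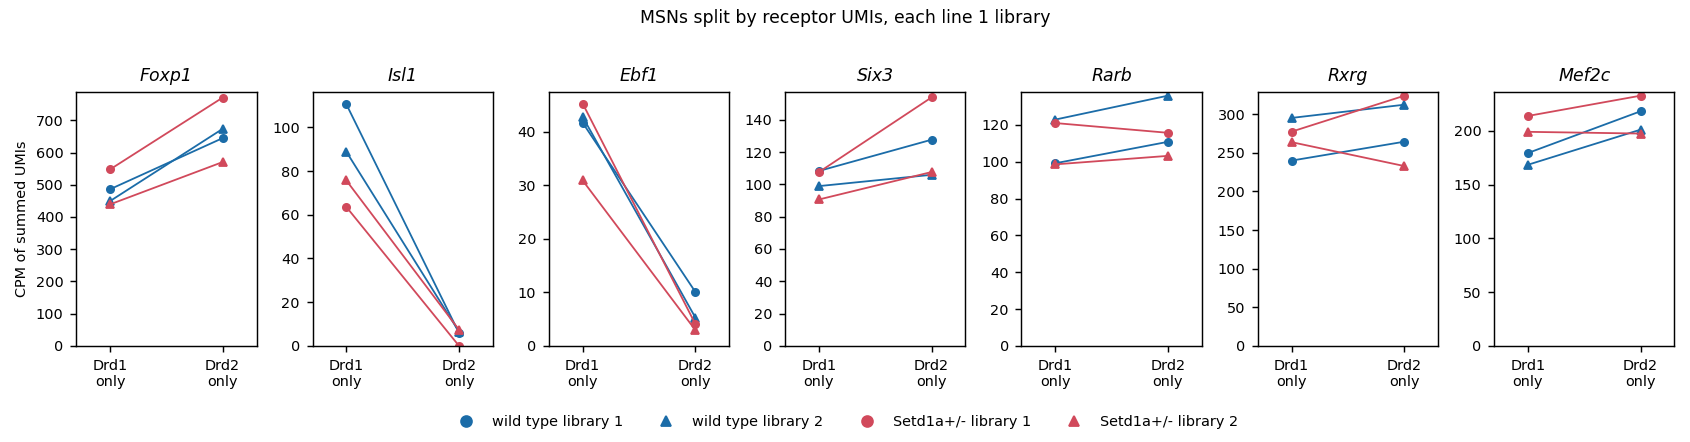
CPM of summed UMIs (vertical axis) of each factor in MSNs with Drd1 and no Drd2 and in MSNs with Drd2 and no Drd1, with 1 line per library coloured by genotype. Isl1 and Ebf1 lay lower in Drd2 than in Drd1 cells in 4 of 4 libraries. Foxp1 and Six3 lay higher in Drd2 cells in 4 of 4, though the ranges of Six3 overlapped.

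MSNs were then compared with PFC excitatory neurons, the projection neurons of the 2 tissues, which were clustered apart from each other and come from different libraries. Foxp1, Rarb and Rxrg were higher in MSNs and Mef2c was lower, each past an FDR of 0.05 and 2-fold. Isl1, Ebf1 and Six3, with 1, 19 and 0 UMIs in excitatory neurons, passed the filter only through the MSNs and are given by their counts. Of the 12154 genes tested, 10.5% were called higher and 13.8% lower. Of the 10868 genes that met the filter in each group, 7.48% were called higher and 10.0% lower. Six3 was at 103 to 124 CPM in MSNs and had no UMI in excitatory neurons, and it was at least 703-fold higher, against a floor of 3 UMIs over the group. Isl1 was at 40.8 to 54.3 CPM in MSNs, from 1086 UMIs, and had 1 UMI in excitatory neurons. The ratio of 961 has a 95% counting interval of 172 to 37975. Rarb was at 96.2 to 124 CPM in MSNs and 2.84 to 5.03 CPM in excitatory neurons (log2 fold change 4.80, SE 0.16, FDR = 5.31e-08). Ebf1 was at 15.9 to 22.9 against 0.214 to 1.70 CPM, from 451 and 19 UMIs, a ratio of 21.0 with a counting interval of 13.3 to 35.2. Rxrg was at 223 to 291 against 9.54 to 18.0 CPM (log2 fold change 4.34, SE 0.20, FDR = 2.11e-07). None of these ranges overlapped, and the share of all genes without overlap was not counted here. Foxp1 was at 465 to 552 CPM in MSNs, with a log2 fold change of 1.11 (SE 0.11, FDR = 2.67e-05). Mef2c was at 179 to 222 CPM in MSNs, with a log2 fold change of -3.58 (SE 0.19, FDR = 4.47e-07). Tissue and dissection differ with the cell type here and cannot be told apart from it.

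The cells annotated as interneurons in the striatum were compared with those of the PFC. The 2 groups were not alike in their markers. The 7 summed interneuron markers were at 3421 to 10222 CPM in the striatum and 19216 to 25503 CPM in the PFC. The 3 summed markers of excitatory neurons (Slc17a7, Neurod6 and Tbr1) were at 264 to 416 CPM in striatal and 0 to 27.9 CPM in PFC interneurons, beside 805 to 1049 CPM in PFC excitatory neurons. Each of the 3 was higher in striatal than in PFC interneurons in all libraries. Their part in the differences below was not tested. Mef2c was lower in the striatum, while Isl1, Rxrg and Rarb are given by their counts. Isl1 was at 46.2, 64.2, 73.9 and 33.0 CPM in the striatum and at 0, 3.98, 0 and 0 CPM in the PFC. Rxrg was at 40.1, 32.9, 29.6 and 26.4 CPM against 11.4, 5.98, 15.5 and 6.62 CPM. This rested on 145 and 16 UMIs, a ratio of 3.30 with a counting interval of 1.96 to 5.93. The tissues did not overlap for Isl1 or Rxrg, and the share of all genes without overlap was not counted here. Rarb was at 19.7, 34.5, 17.2 and 21.7 CPM against 17.1, 9.96, 2.22 and 3.31 CPM, where the tissues nearly met, from 105 and 13 UMIs, a ratio of 2.94 with a counting interval of 1.65 to 5.70. Mef2c was at 227 to 405 CPM against 544 to 990 CPM (log2 fold change -1.58, SE 0.23, FDR = 0.000283). Isl1, Rarb and Rxrg, with 2, 13 and 16 UMIs in PFC interneurons, passed the filter on low counts mainly through the striatal cells, so no test or count of called factors is given. Of the 7877 genes tested, 8.34% were called, 4.68% higher and 3.66% lower. Of the 6900 that met the filter in each tissue, 4.97% were called, 2.48% higher and 2.49% lower. Foxp1 was at 53.0 to 100 CPM against 51.0 to 57.8 CPM (log2 fold change 0.53, SE 0.23, FDR = 0.154). Ebf1 and Six3 had too few UMIs for the test. Isl1 rested on 234 UMIs in 821 striatal and 2 UMIs in 298 PFC interneurons, a ratio of 42.6 with a counting interval of 11.7 to 354. The 4 MSN markers were at 7.77 to 11.4% of their MSN level in striatal interneurons, Rarb at 16.1 to 27.9%, Rxrg at 11.3 to 18.0% and Isl1 at 69.4 to 181%. The part of free RNA in the values of Rarb and Rxrg was not tested.

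Isl1 is also a factor of cholinergic neurons, and the striatal interneurons were split by UMIs of Chat, the enzyme that makes acetylcholine, or Slc5a7, the choline transporter. Of the 45 cells with either, 22 carried an Isl1 UMI (48.9%, Wilson 95% interval 35.0 to 63.0%). Of the 776 cells with neither, 79 did (10.2%). The share was 50.0% against 9.05% in WT library 1 and 53.3% against 16.7% in WT library 2. It was 50.0% (2 of 4 cells) against 13.4% and 41.7% against 4.66% in Setd1a+/- libraries 1 and 2, so that it was higher in 4 of 4 libraries. The median depth was 6263 UMIs in the 45 cells and 4762 in the others, and with cells thinned to 1000 UMIs the shares were 20% and 2.96%. Thinned, WT library 2 had 6.67% against 4.02%, from 15 cells with either gene. Six3 was found in 0 of the 45 cells (Wilson 95% interval 0 to 7.87%) and in 31 of the 776 (3.99%). That interval holds the share of the 776, so no difference is read for Six3. These intervals cover counting error only.

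Within PFC excitatory neurons, Mef2c and Foxp1 varied between the 7 subtypes in different orders. The names give the layer, SL for superficial and DL for deep, and a marker gene. Mef2c was highest in SL-Cux2, at 4201, 4756, 3589 and 4622 CPM. SL-Myh7 followed at 2525 to 3721 CPM and overlapped SL-Cux2. DL-Nnat (2170 to 3277 CPM), DL-Etv1 (2304 to 2896 CPM) and DL-Pou3f1 (1511 to 2854 CPM) overlapped SL-Myh7. DL-Tshz2 had 942 to 1471 CPM and DL-Foxp2 had 709 to 1141 CPM, so that the ranges of SL-Cux2 and these 2 deep subtypes were far apart. Foxp1 was highest in DL-Tshz2 (315 to 409 CPM), DL-Etv1 (309 to 390 CPM) and SL-Cux2 (266 to 319 CPM), which overlapped. It was lowest in SL-Myh7 (119 to 150 CPM) and DL-Foxp2 (124 to 175 CPM). DL-Tshz2 thus stood at the top for Foxp1 and next to the bottom for Mef2c. Rxrg was mainly in SL-Cux2 (16.7 to 34.7 CPM) and DL-Etv1 (15.0 to 35.3 CPM), and the other subtypes except DL-Pou3f1 stayed under 9.05 CPM. DL-Pou3f1 had 62 cells in 4 libraries, and its values scatter widely. Rarb was low throughout, with its highest mean in DL-Nnat (1.80 to 15.1 CPM), then DL-Etv1 (5.52 to 7.14 CPM), and these 2 overlapped. DL-Etv1, from 26 UMIs, lay above DL-Foxp2 (0 to 4.86 CPM), SL-Myh7 (0 to 3.12 CPM) and DL-Tshz2 (0 to 2.31 CPM). These rested on 6, 3 and 1 UMIs in that order, and a count of 0 in a library allows up to 3. The ranges lie near that floor, so no separation is read from them.

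**Figure D4:**
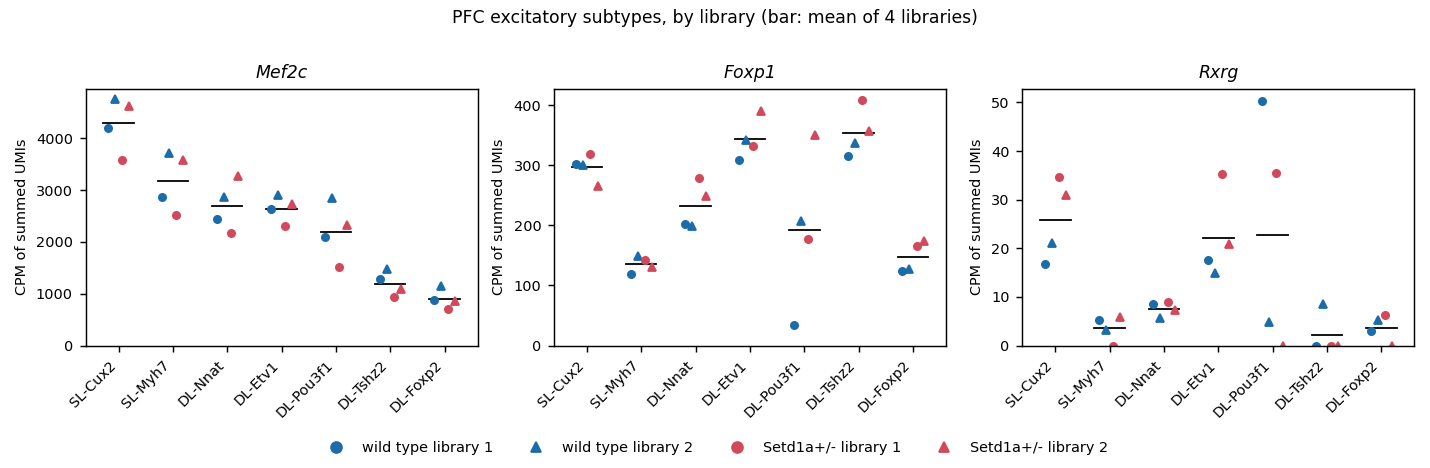
CPM of summed UMIs (vertical axis) of Mef2c, Foxp1 and Rxrg in the 7 excitatory subtypes of the PFC, with 1 point per library coloured by genotype and a bar at the mean. By mean, Mef2c was highest in SL-Cux2 (3589 to 4756 CPM) and lowest in DL-Foxp2 (709 to 1141 CPM), while Foxp1 was highest in DL-Tshz2 and DL-Etv1.

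The effect of Setd1a heterozygosity on the factors was tested in D1 MSNs, D2 MSNs and PFC excitatory neurons, 2 libraries against 2, with edgeR and the adjusted p over all genes. None of the factors was called in any of the 3. In D1 MSNs 0 of 11015 genes (0.0%) were called by edgeR at an FDR under 0.05 and 2-fold, with 228 at an unadjusted p under 0.05, and DESeq2 called 0. The numbers of the libraries pair the genotypes, and with the replicate block 10 genes were called in D1 MSNs, 10 in D2 MSNs and 2 in excitatory neurons, none of them 1 of the 7 factors. In D2 MSNs 4 of 10081 genes (0.0397%) were called, the hemoglobin genes Hbb-bt, Hbb-bs, Hba-a1 and Hba-a2, named after their values were seen. In excitatory neurons 0 of 11665 genes were called at 1.5-fold (158 at an unadjusted p under 0.05, 0 by DESeq2).

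Isl1 in D1 MSNs ranged from 84.8 to 91.1 CPM in WT and from 66.9 to 79.3 CPM in Setd1a+/- libraries, and the genotypes did not overlap. Its log2 fold change of Setd1a+/- over WT was -0.22 (SE 0.16, FDR = 1.00). Ebf1 in D1 MSNs, at 36.5 and 34.8 against 34.0 and 26.1 CPM, had a log2 fold change of -0.22 (SE 0.19, FDR = 1.00). Leaving out 1 library moved these values over -0.38 to -0.077 for Isl1 and -0.38 to -0.056 for Ebf1. The genotypes did not overlap for 2 of 7 factors in D1 MSNs, against 29.3% of all genes tested. Foxp1, Six3, Rarb, Rxrg and Mef2c had log2 fold changes of -0.13 to 0.24 in D1 MSNs and of -0.13 to 0.11 in D2 MSNs, with SEs of 0.14 to 0.20, and their genotypes overlapped in both classes. Mef2c gave the upper end in both, and leaving out 1 library moved it over 0.069 to 0.39 in D1 and 0.041 to 0.18 in D2 MSNs. Isl1 and Ebf1 had too few UMIs in D2 MSNs for the test, 16 and 20 in all.

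In PFC excitatory neurons Rxrg was at 9.54 and 10.7 CPM in WT libraries against 18.0 and 15.3 CPM in Setd1a+/-. The genotypes did not overlap, and the log2 fold change was 0.71 (SE 0.25, FDR = 1.00 with edgeR). It failed the correction over all genes. In the 3 subtypes with the highest mean of Rxrg, SL-Cux2 had 16.7 and 21.2 against 34.7 and 30.9 CPM, and DL-Etv1 had 17.5 and 15.0 against 35.3 and 20.9 CPM. DL-Pou3f1 had 50.3 and 4.84 against 35.6 and 0 CPM, from 8 UMIs in 62 cells, so that its mean was lower in Setd1a+/- libraries. Foxp1 was at 224 and 234 against 267 and 276 CPM (log2 fold change 0.25, SE 0.18, FDR = 1.00), also without overlap. With Rxrg, that is 2 of the 4 factors tested, against 23.6% of all genes. Mef2c (0.036, SE 0.32) and Rarb (-0.20, SE 0.40) overlapped, and Isl1, Ebf1 and Six3 had too few UMIs. For Foxp1, Six3, Rarb, Rxrg and Mef2c the genotype effect did not pass a test of its difference between D1 and D2 MSNs (log2 differences of -0.014 to 0.10 with SEs of 0.07 to 0.14, FDR = 0.999 for each), and 0.0364% of genes were called there. For Isl1 and Ebf1, with SEs of 0.79 and 0.71, that test says nothing at these counts in D2 MSNs.

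**Figure D5:**
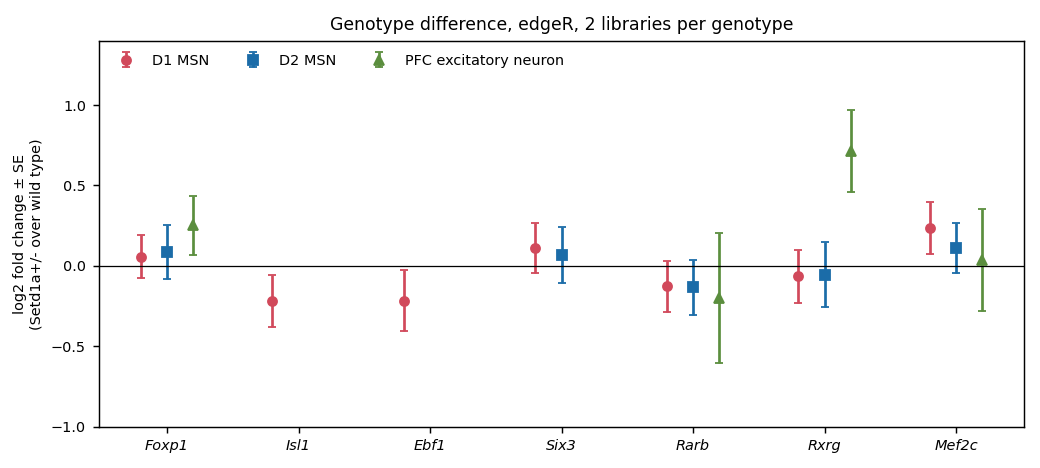
Log2 fold change of Setd1a+/- over WT with its SE from edgeR (vertical axis) for each factor in D1 MSNs, D2 MSNs and PFC excitatory neurons, 2 libraries per genotype. Factors with too few UMIs in a cell class have no point, and Rxrg in excitatory neurons (0.71) had the largest value, with FDR = 1.00.

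Relatives of the factors were followed as 19 genes of the same families. Counts over this list and the 2 below are of genes that met the filter on low counts in each of the groups compared. In the receptor split 5 did and 1 was called, beside 0.722% of all such genes. Foxp2, the forkhead paralog of Foxp1, was at 284 to 355 CPM in Drd1 cells and 53.7 to 92.6 CPM in Drd2 cells (log2 fold change 2.12, SE 0.09, FDR = 2.35e-17), the opposite direction to Foxp1. Mef2a (0.19, SE 0.11), Mef2d (0.045, SE 0.12) and Rxrb (-0.079, SE 0.23) did not pass. Against PFC excitatory neurons 1 of 7 was called, beside 17.5% of all 10868 such genes, and it was Foxp2, higher in MSNs (1.75, SE 0.19). Mef2a was at 74.9 to 86.9 CPM in MSNs and 90.5 to 112 CPM in excitatory neurons, and Mef2d had a log2 fold change of -0.24 (SE 0.12, FDR = 0.126), beside -3.58 for Mef2c. In interneurons 0 of 2 were called by edgeR, beside 4.97% of 6900 genes. Foxp2 had a mean of 56.7 CPM in striatal and 0.827 CPM in PFC interneurons and met the filter in the striatum alone. The medians of the relatives were 0.20, 0.28 and 0.21 in the 3 comparisons, beside -0.0029, 0.0084 and 0.0053 for all such genes.

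Other factors of striatal development were a list of 20. In the receptor split 7 met the filter in each class and 1 was called, beside 0.722% of all genes. Tshz1, a zinc finger factor, was higher in Drd1 cells at 88.3 to 106 CPM against 29.5 to 58.5 CPM (log2 fold change 1.03, SE 0.13, FDR = 7.66e-07). Sp9, a zinc finger factor of D2 neurons, met the filter through Drd2 cells, at 1.51 to 4.98 CPM in Drd1 and 13.6 to 17.7 CPM in Drd2 cells, and is named after its value was seen. Bcl11b (Ctip2, -0.061, SE 0.06) and Egr3 (-0.079, SE 0.12) did not pass, and Meis2 had a small value (-0.16, SE 0.05, FDR = 0.0450) whose FDR was 0.0733 over the genes that met the filter in each class. Against excitatory neurons 3 of 5 were higher in MSNs and 0 lower, beside 7.48% and 10.0% of all such genes, with a median of 1.83. The list was chosen for the striatum. Bcl11b (1.84, SE 0.16), Meis2 (1.91, SE 0.16) and Tshz1 (2.11, SE 0.12) were the 3, and Egr3 was not among them (-0.45, SE 0.15). In interneurons 0 of 6 were higher and 2 lower in the striatum, beside 2.48% and 2.49% of all such genes, with a median of -0.70. The 2 were Dlx1 (-2.39, SE 0.28) and Dlx5 (-1.40, SE 0.21), homeodomain factors of inhibitory neurons, named after their values were seen. In the receptor split the median was -0.055.

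Genes that carry, make or break down retinoic acid, the ligand of Rarb, were followed as 11 genes. In the receptor split 2 met the filter in each class and 0 were called by edgeR, beside 0.722% of all genes, with a median of -0.20. These were Rbp4, a retinol carrier (log2 fold change -0.39, SE 0.17, FDR = 0.210), and Dhrs3, which turns retinal back into retinol (-0.015, SE 0.21). Against excitatory neurons 2 of 3 were higher in MSNs and 0 lower, beside 7.48% and 10.0% of all such genes, with a median of 1.07. Dhrs3 (2.17, SE 0.19, FDR = 1.14e-05) and Rdh10, which makes retinal from retinol (1.08, SE 0.22, FDR = 0.00267), were higher, and Rbp4 passed the FDR at under 2-fold (0.95, SE 0.21, FDR = 0.00382). The other 4 genes tested met the filter in 1 group alone. Of these, Crabp1, a carrier of retinoic acid, had no UMI in excitatory neurons and 7.59 to 17.4 CPM in MSNs. Aldh1a1, which makes retinoic acid, and Cyp26b1, which breaks it down, were at means of 5.55 and 4.48 CPM in excitatory neurons and at most 1.22 and 0.305 CPM in MSNs, and are named after their values were seen. In interneurons no gene of the list met the filter in each tissue. In none of the genotype comparisons was a gene of the 3 lists called, and the medians of the lists were -0.062 to 0.11 in D1 MSNs, 0.0066 to 0.074 in D2 MSNs and -0.29 to 0.56 in excitatory neurons.

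The genes most like each factor were ranked by Pearson's r of log2(mean CPM + 1) over the 18 types, among 11304 genes that reached 20 CPM in a type. Foxp1 was most like Lmo7 (0.95), Actn1 and Nomo1. Isl1 was most like Baiap3 (0.82), Drd1 and Gigyf1, and Ebf1 most like Kctd12b (0.94), Clec14a and Bcam. Six3 was followed by Lrrc10b (0.91), Ryr1 and Scn4b, Rarb by Necab2 (0.94), Strip2 and Rem2, and Rxrg by Akap8l (0.92), Syt6 and Lingo3. Mef2c was most like its own paralog Mef2a (0.90), then Rock2. In single cells, a median of 2 of the 7 factors was detected per D1 and per D2 MSN. At least 3 were detected in 40.6% of D1 and 45.4% of D2 MSNs, against 8.11% of PFC excitatory neurons. The latter are deeper, at a median of 6546 UMIs. The 7 factors were chosen for their place in MSNs, and Isl1, Ebf1 and Six3 had 1, 19 and 0 UMIs in excitatory neurons. The contrast thus follows in part from the choice of genes. In the striatum 15.9% of microglia (median 2285 UMIs) and 7.92% of interneurons (median 4787 UMIs) had at least 3. In cells thinned to 1000 UMIs the shares were 4.71%, 5.10% and 0.180%, with 0.369% in striatal microglia and 0.365% in striatal interneurons.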

How the data were processed

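Single-cell RNA sequencing (10x Genomics 3' tags) was done on 4 PFC and 4 striatum libraries, 2 WT and 2 Setd1a+/- each. The deposited counts are raw UMI counts per gene and droplet barcode, made by the authors with Cell Ranger 3.0.2 on mm10, and Seurat 3.2.0 was used for the annotation, per the submitters' processing notes and the methods. Cells under 800 genes or over 10% mitochondrial UMIs had been removed, and 3 deposited expression tables that carry row numbers in place of gene names were not used. The gene annotation version and the use of strand are not given in the sources used here. Doublet removal is not given either, and none was done here. Labels and methods differ in the age of the mice.

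UMIs were summed per library and cell class. CPM is a share of all UMIs of those cells. Sums were tested with edgeR 4.0.16 in R 4.3.3 (quasi-likelihood, TMM, low genes dropped by filterByExpr at min.count 10, p-values adjusted over all genes by Benjamini-Hochberg), and a call needed an FDR under 0.05 and 2-fold (1.5-fold for genotype in the PFC), after the cutoffs of the study. The scripts were tested on simulated counts. Per-gene depth limits precision, with 16 UMIs of Isl1 in D2 MSNs. Alternatives were DESeq2 1.42.0, library size alone, no filter, leaving out each library, the replicate block, no library block, receptor classes with Adora2a, and cells thinned to 1000 UMIs. Added after seeing the data was a filter that keeps genes at the CPM of the low-count filter in at least 2 libraries of each group. Intervals on shares are Wilson's at 95% and cover counting error only. Python 3.11.15 was used.

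By the methods, a biological replicate held 1 WT and 1 Setd1a+/- library, so the numbers pair the libraries. The correlation over genes of the replicate differences in WT and Setd1a+/- was 0.40 in D1 MSNs, 0.35 in D2 MSNs and 0.60 in excitatory neurons. Each library pools 2 mice, so p-values for genotype within a class and for PFC against striatum rest on the spread between pools. The receptor split and the genotype effect in D1 against D2 MSNs had the library as a block. Their p-values rest on how the difference between classes varies from library to library. The main genotype fits had no replicate block, so their spread also holds the difference between replicates. The 7 factors, the lists and the marker genes were chosen with earlier results of these data known. All 7 factors are named in every comparison, with the 3 genes of the most similar profile for each and, from each list, at most 4 genes with the highest MSN level; exceptions are said to be named after their values were seen. Some genes of the lists and profiles are not reported here.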

Additional observations from a re-analysis of the deposited data

How the results depend on the processing

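Of 68 counts of called genes under other settings, 47 were within 1.5 times the reported one. In the receptor split, edgeR called 128 genes, DESeq2 64, a fit with no library block 76, cells thinned to 1000 UMIs 60, and genes that met the filter in each class 60. Such genes gave 1900 calls between MSNs and excitatory neurons and 343 between interneurons, from fewer genes tested. Without the filter on low counts, 10 genes were called for genotype in D1 MSNs, 13 in D2 MSNs, 13 in excitatory neurons and 1106 between interneurons. With the replicate block the genotype counts were 10, 10 and 2, and it changed no call of a factor. DESeq2 called 0 genes for the difference of the genotype effect between D1 and D2 MSNs.

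Leaving out each library in turn gave 0 to 29 genes for genotype in D1 MSNs (16 and 13 without WT 1 and 2, 29 without Setd1a+/- 1), 6 to 12 in D2 MSNs, 0 to 1 in excitatory neurons, and 3 to 6 for the difference between MSN classes. The arm left with 1 library is assumed to vary like the others. Six3 in the receptor split missed the FDR threshold in 9 of 11 settings, among them without each library.

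Of 400 log2 fold changes of the factors under other settings, 26 changed sign, each of a small value that was not called. In the receptor split they were Rxrg (0.042 with Drd2 or Adora2a) and Rarb (0.0059 when thinned). Under leaving out a library, the ranges in D1 MSNs were -0.26 to 0.026 for Rarb, -0.24 to 0.14 for Rxrg and -0.029 to 0.24 for Six3. In D2 MSNs they were -0.073 to 0.24 for Foxp1, -0.070 to 0.22 for Six3, -0.26 to 0.0043 for Rarb and -0.26 to 0.19 for Rxrg. In excitatory neurons they were -0.37 to 0.35 for Mef2c and -0.58 to 0.062 for Rarb. For the difference between MSN classes they were -0.11 to 0.082 for Foxp1, -0.52 to 5.20 for Isl1, -0.99 to 0.45 for Ebf1, -0.13 to 0.20 for Six3, -0.038 to 0.056 for Rarb, -0.21 to 0.21 for Rxrg (-0.0022 with DESeq2) and -0.11 to 0.37 for Mef2c. The cause of these changes was not tested. Depth limits Isl1 and Ebf1 most, at 16 and 20 UMIs in D2 MSNs and 23 and 26 in Drd2 cells.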
